A study of Mus musculus with 6 samples.

Results

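The genes described here carry out beta-oxidation inside peroxisomes or move its substrates in. All probe sets that the array's platform annotation assigns to Ehhadh, Acaa1a, Acaa1b, Acox2, Acox3, Hsd17b4, Abcd2 or Abcd3 were taken, which gave 17 of 45101 probe sets for the 8 genes. Of these, 15 name 1 gene and 2 are assigned to Acaa1a and Acaa1b together. The genes fall into 3 straight-chain enzymes (Ehhadh, Acaa1a and Acaa1b), 3 branched-chain enzymes (Acox2, Acox3 and Hsd17b4) and 2 importers (Abcd2 and Abcd3). Liver RNA came from male mice, as 3 samples of NZO, an inbred strain that becomes obese and diabetic on ordinary chow, and 3 of C57BL/KS (BKS), labelled wild type, as the control strain. The mice were 18 weeks old and on standard chow, and each sample had 1 array, with no label stating that each is a separate animal. The mice are described as littermates, with no record of which shared a litter. The strains differ throughout the genome, so no difference here can be tied to a single allele.

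Peroxisomes shorten fatty acids that mitochondria handle poorly: very long chains, chains with methyl branches, and the side chain of bile acid precursors. ABCD transporters in the peroxisomal membrane bring the acyl-CoA esters in, an acyl-CoA oxidase makes the double bond and releases hydrogen peroxide, a bifunctional enzyme hydrates and dehydrogenates the chain, and a thiolase cleaves off a short unit. In rodent liver the straight-chain enzymes are well-known targets of the fatty acid receptor PPAR alpha, whereas the branched-chain enzymes respond less to it.

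None of the 8 genes passed the test across all genes. The clearest values belonged to the branched-chain acyl-CoA oxidases, which differed in opposite directions. Acox3 lay higher in all 3 NZO livers and Acox2 lower in all 3, each by a little under 1 on the log2 scale, while Hsd17b4, Acaa1b and both importers had strain averages at most 0.24 apart. The Acox3 value is that of the brighter of its probe sets, which was dim, and the second gave -0.19. Without NZO replicate 1, Acox2 stood at -0.54. By limma over 18193 genes, 0 of 8 genes had an adjusted p below 0.05, where 0.742% of all genes did. At an unadjusted p below 0.05 there were 2 of 8, against 11.4% of all genes. The same 2, Acox2 and Acox3, had strains that did not overlap, as did 17% of all genes. A count of 2 among 8 is given as a description and sets these genes apart from no others. Of the 17 probe sets none was called, against 0.424% of all probe sets, with 2 at an unadjusted p below 0.05 (10.1% of all) and 2 without overlap (15.3% of all). The median log2 fold change (NZO minus BKS) was 0.02 over the 8 genes and -0.03 over all genes.

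The arrays were not alike in quality, and this touches the members. Array medians ran from 5.08 to 5.22 in log2 units, but the 99th percentile was 11.64 in NZO replicate 1, against 12.65 and 12.68 in the other NZO arrays and 12.55 to 12.66 in BKS. Quantile normalization in a single RMA run leaves arrays with nearly the same distribution, so whether the 6 arrays were normalized together is not known, and the deposited differences carry that gap. Spiked hybridization controls averaged 8.17 in NZO replicate 1 and 9.29 in BKS replicate 1, both titled number 1 in the labels, and 10.17 to 11.52 on the other 4. Beta-actin 3' minus 5' signal, a measure of RNA or cDNA truncation, was 1.29 to 1.39 in NZO and 1.72 to 2.33 in BKS, so it moved with strain. The same difference for Gapdh was -0.04 to 0.14 in NZO and 0.45 to 0.98 in BKS, and the 18S ribosomal RNA signal was 4.64 to 5.52 in NZO, against 4.51, 10.46 and 7.91 in BKS. The part of these measures in the strain differences was not tested. Hepatocyte markers were bright in both strains, from 12.03 to 14.62 as NZO means and from 12.46 to 14.83 as BKS means over 8 genes, as the tissue label says.

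**Figure D1:**
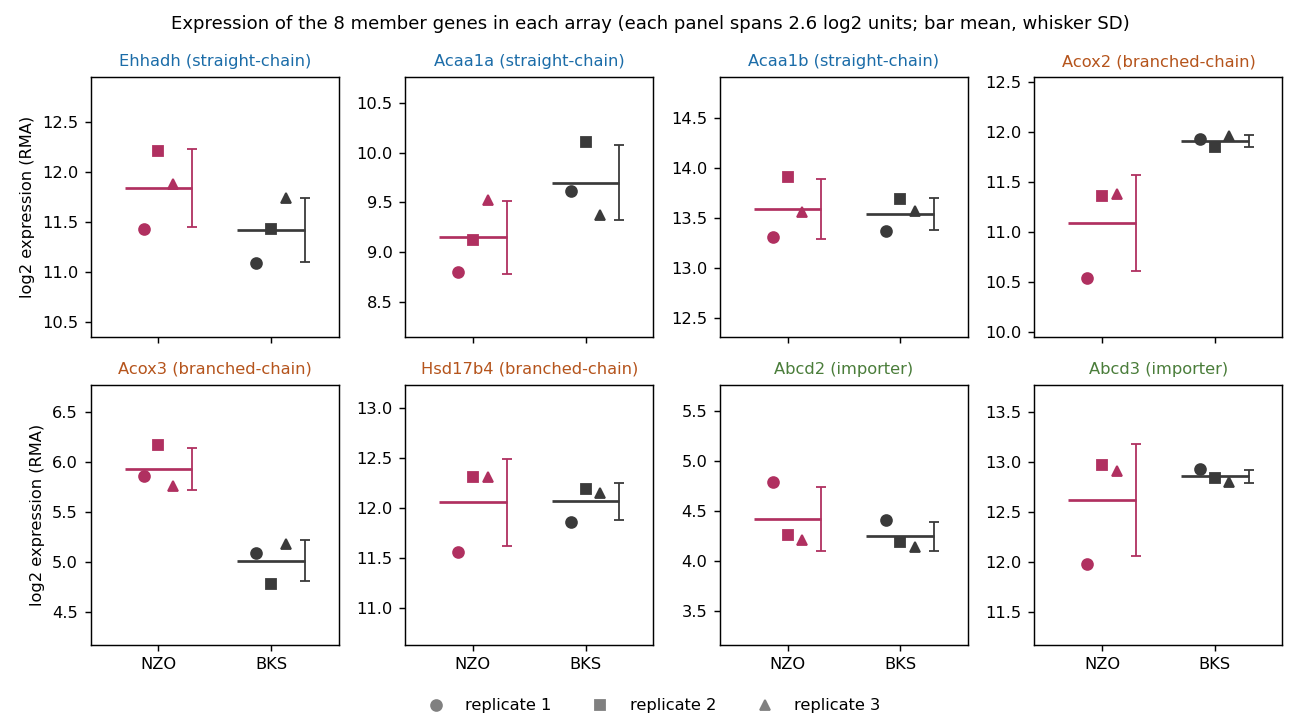
Log2 expression (vertical axis, RMA values of the brightest probe set) of each of the 8 genes in 3 NZO and 3 BKS arrays, with replicates as symbols, the strain mean as a bar and the SD as a whisker. The strains separate for Acox2 and Acox3 and overlap for the other 6 genes.

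Ehhadh encodes the L-bifunctional enzyme, which does the hydration and dehydrogenation steps on straight chains and on dicarboxylic acids. Its log2 expression was 11.43, 12.21 and 11.88 in NZO livers, against 11.09, 11.43 and 11.74 in BKS livers. The strains overlapped, since NZO replicate 1 lay below 2 of the BKS livers. Ehhadh averaged 11.84 ± 0.39 in NZO and 11.42 ± 0.32 in BKS (SD, n = 3 each). The log2 fold change was 0.42, with a 95% confidence interval of -0.18 to 1.02 and a limma adjusted p of 0.602. A rise of up to about 1 log2 unit therefore lies within the interval.

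Acaa1a and Acaa1b encode the peroxisomal thiolases A and B, which release the shortened chain in the last step. They are close copies that lie on chromosome 9 with 4 protein-coding genes between their starts, so a probe can match both. Acaa1b had 13.31, 13.91 and 13.56 in NZO livers, against 13.37, 13.69 and 13.57 in BKS livers. The BKS range lay inside the NZO range, and the log2 fold change was 0.05 (95% confidence interval -0.41 to 0.52, limma adjusted p = 0.955).

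Acaa1a had 8.80, 9.13 and 9.53 in NZO livers, against 9.61, 10.11 and 9.38 in BKS livers. NZO replicate 3 overlapped with BKS replicate 3, and the log2 fold change was -0.55 (95% confidence interval -1.15 to 0.06, limma adjusted p = 0.487). Both probe sets that name Acaa1a alone end in _x_at, the array's mark for probes that also match other transcripts. The second one spread over 2.31 log2 units within NZO, with 6.18, 8.49 and 7.92 in NZO livers and 7.24, 8.90 and 8.38 in BKS livers, and gave -0.64 (95% confidence interval -2.20 to 0.92). The 2 probe sets shared by Acaa1a and Acaa1b gave 0.01 and 0.18, close to the value of Acaa1b. None of these 5 thiolase probe sets separated the strains.

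The 250 bases before a transcription start are shown for both thiolases, copies with differing log2 fold changes, although neither passed and their intervals overlapped. They are also shown for Acox2 and Acox3, described next, which differed in opposite directions. The bases are those of a reference assembly and were not read from NZO or BKS DNA. Sequences are from RefSeq (GRCm38.p6), 5' to 3' on the gene's strand, with CCAAT boxes and GC boxes (GGGCGG), on either strand, in capitals:
Acaa1a, chr9:119341044-119341293 (+): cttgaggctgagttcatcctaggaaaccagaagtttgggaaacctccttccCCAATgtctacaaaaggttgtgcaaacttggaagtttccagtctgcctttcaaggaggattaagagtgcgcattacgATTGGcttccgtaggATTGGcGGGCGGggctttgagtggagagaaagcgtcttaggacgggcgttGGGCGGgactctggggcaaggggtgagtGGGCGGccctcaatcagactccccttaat
Acaa1b, chr9:119157094-119157343 (-): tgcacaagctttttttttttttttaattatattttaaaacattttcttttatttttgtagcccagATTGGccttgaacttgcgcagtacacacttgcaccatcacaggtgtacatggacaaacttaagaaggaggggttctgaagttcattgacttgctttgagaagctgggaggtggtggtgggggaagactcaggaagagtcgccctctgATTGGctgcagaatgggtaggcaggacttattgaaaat
Acox2, chr14:8259020-8259269 (-): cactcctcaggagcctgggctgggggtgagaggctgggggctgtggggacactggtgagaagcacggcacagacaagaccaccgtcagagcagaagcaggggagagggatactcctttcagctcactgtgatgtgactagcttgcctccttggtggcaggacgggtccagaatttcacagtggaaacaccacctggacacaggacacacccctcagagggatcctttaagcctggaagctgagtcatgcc
Acox3, chr5:35582784-35583033 (+): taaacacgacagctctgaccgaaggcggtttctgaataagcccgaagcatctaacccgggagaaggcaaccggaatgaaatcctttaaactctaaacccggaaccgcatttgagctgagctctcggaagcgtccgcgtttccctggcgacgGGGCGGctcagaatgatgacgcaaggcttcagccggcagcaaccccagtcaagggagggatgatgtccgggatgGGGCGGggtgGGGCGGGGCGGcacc
The windows differed in base composition. The thiolase windows had 53.6% G and C for Acaa1a and 41.6% for Acaa1b, and the oxidase windows 58.8% for Acox2 and 60% for Acox3, around a median of 52.4% over all 32851 windows. Acox3 held 4 GC boxes, of which the 2 nearest the start overlap by a base, Acaa1a held 3, and Acaa1b and this Acox2 window held none. A GC box occurred in 32.74% of all windows and a CCAAT box in 33.85%. Acaa1a had 3 CCAAT boxes and Acaa1b had 2, while Acox3 and this Acox2 window had none. A second start of Acox2, with a window at chr14:8258840-8259089, had 1. The receptor half-site AGGTCA, present in 14.02% of windows, and the spaced repeat AGGTCANAGGTCA, present in 0.03%, were found in none of the windows of Ehhadh, Acaa1a, Acaa1b, Acox2, Acox3 or Abcd3 when both strands were searched. That says only that these letters are not in those 250 bases.

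Acox2 encodes the branched-chain acyl-CoA oxidase that starts the shortening of the bile acid precursors' side chain. Its log2 expression was 10.54, 11.36 and 11.38 in NZO livers, against 11.93, 11.85 and 11.96 in BKS livers. All NZO livers lay below all BKS livers, which agreed within 0.12, and NZO replicate 1 lay 0.83 below the next NZO liver. Acox2 averaged 11.09 ± 0.48 in NZO and 11.91 ± 0.06 in BKS (SD, n = 3 each), or 1.77-fold lower in NZO. The log2 fold change was -0.82, with a 95% confidence interval of -1.40 to -0.24 and a limma adjusted p of 0.255. A change at least this large in either direction was seen in 5.18% of genes. Acox2 was measured by a single probe set.

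Acox3 encodes pristanoyl-CoA oxidase, which acts on chains with methyl branches. Its brighter probe set gave 5.87, 6.17 and 5.76 in NZO livers, against 5.09, 4.78 and 5.18 in BKS livers. All NZO livers lay above all BKS livers, with the BKS values near the array medians, low on the scale. Acox3 averaged 5.93 ± 0.21 in NZO and 5.02 ± 0.21 in BKS (SD, n = 3 each), or 1.89-fold higher in NZO. The log2 fold change was 0.92 (95% confidence interval 0.48 to 1.35, limma adjusted p = 0.0945), and 3.85% of genes had a change of at least that size. The second Acox3 probe set did not follow it: 4.93, 4.86 and 4.53 in NZO livers, against 4.64, 5.43 and 4.80 in BKS livers. Those strains overlapped, with all but BKS replicate 2 below its array's median, and the log2 fold change was -0.19 (95% confidence interval -0.74 to 0.37). With both probe sets averaged, the log2 fold change of Acox3 was 0.37 (limma adjusted p = 0.44).

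Hsd17b4 encodes the D-bifunctional enzyme, which serves branched chains and bile acid precursors after either oxidase and very long straight chains as well. It had 11.55, 12.31 and 12.31 in NZO livers, against 11.86, 12.19 and 12.15 in BKS livers. NZO replicate 1 was the lowest and the other NZO livers were the highest of the 6. The log2 fold change was -0.01 (95% confidence interval -0.58 to 0.56, limma adjusted p = 0.994), and the second probe set gave -0.12 (95% confidence interval -0.81 to 0.57).

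Abcd3, also known as PMP70, is an abundant peroxisomal membrane transporter that brings in branched-chain and dicarboxylic acyl-CoAs and bile acid precursors. It had 11.98, 12.97 and 12.91 in NZO livers, against 12.94, 12.84 and 12.81 in BKS livers. NZO replicate 1 stood 0.93 below the next NZO liver, and the other NZO livers lay among or above the BKS livers. The log2 fold change was -0.24 (95% confidence interval -0.88 to 0.41, limma adjusted p = 0.815). The second Abcd3 probe set was at 3.74 to 3.91 in NZO and 3.66 to 3.88 in BKS, too near the bottom of the scale to compare.

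Abcd2, a related importer of very long and polyunsaturated chains, was near the bottom of the scale in every array. Its brightest probe set gave 4.78, 4.26 and 4.20 in NZO livers, against 4.40, 4.18 and 4.14 in BKS livers, all below the array medians. Over its 4 probe sets the log2 fold changes ran from -0.04 to 0.22, and each strain mean lay between 3.69 and 4.44. Without detection calls these values show a low signal and no more. Abcd2 is known for its high expression in fat, and the 3 of 5 adipocyte markers that were measured (Adipoq, Lep and Cidea) averaged below 5 over the 6 arrays too, with a summed linear signal of 61.7 to 94.9 in NZO and 59.0 to 64.7 in BKS.

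**Figure D2:**
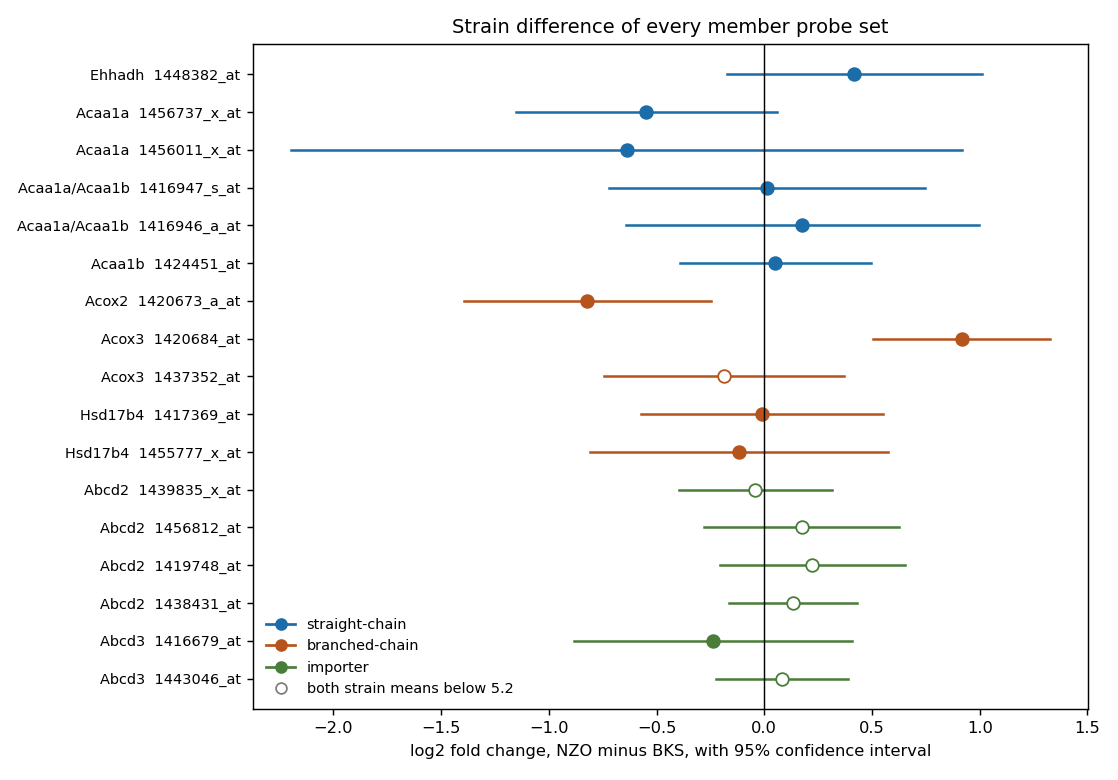
Log2 fold change (horizontal axis, NZO minus BKS) of all 17 probe sets with 95% confidence intervals from limma, coloured by role, with open symbols where both strain means lay below 5.2. The intervals of the Acox2 probe set and of the brighter Acox3 probe set leave out 0, and the other 15 include it.

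Several members had their lowest or highest value of the 6 arrays in the same NZO array. NZO replicate 1 was the lowest of the 6 arrays for 5 of the 8 genes (Acaa1a, Acaa1b, Acox2, Hsd17b4 and Abcd3), and NZO replicate 2 the highest for 5 (Ehhadh, Acaa1b, Acox3, Hsd17b4 and Abcd3). For Acox2 and Acox3 that extreme had to fall in NZO, since their strains did not overlap. Bright genes in general were also low in NZO replicate 1, though not highest in NZO replicate 2. Over 961 genes with a mean of at least 11, the median deviation from a gene's own mean was -0.82 in NZO replicate 1, against 0.16 to 0.21 in the other NZO arrays and 0.05 to 0.22 in BKS. The median log2 fold change of these bright genes was -0.31. In NZO replicate 1, Acox2 deviated by -0.97 and Abcd3 by -0.76, near that median, whereas Ehhadh (-0.20) and Acaa1b (-0.26) deviated less. Acox3 and Abcd2, both dim, deviated upward there, by 0.39 and 0.46.

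**Figure D3:**
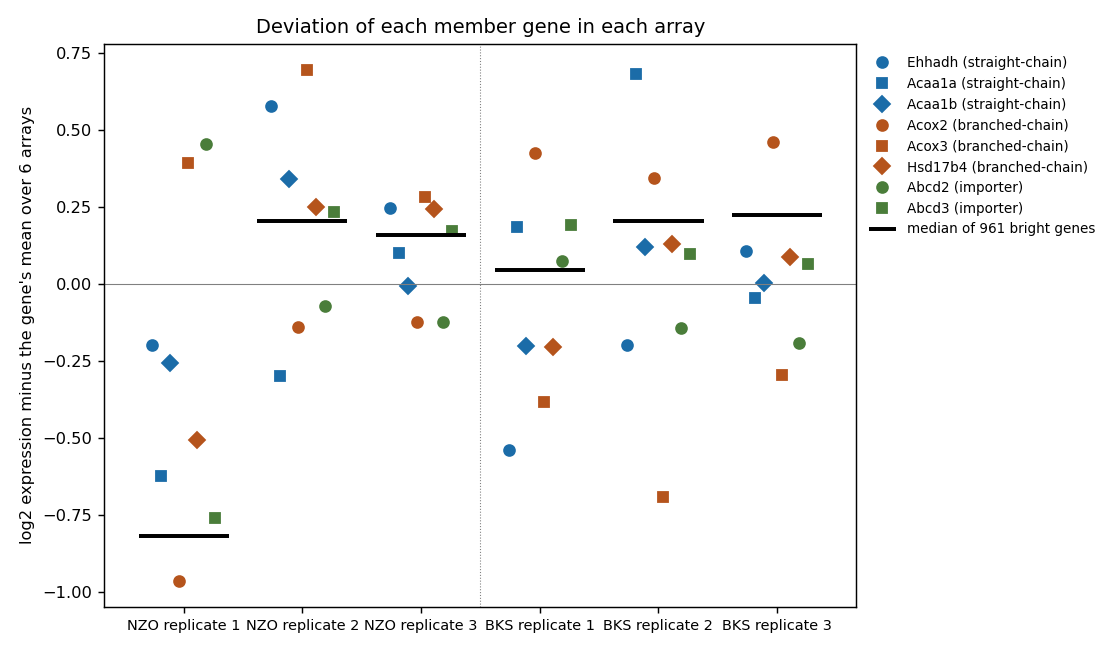
Log2 expression of each gene minus its own mean over the 6 arrays (vertical axis), by array, with the median over 961 genes of mean 11 or more as a black bar. In NZO replicate 1 the bar is at -0.82 and 6 of the 8 genes are below 0.

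Renormalizing the 6 columns removed most of that shift and moved the bright members upward. With quantile normalization repeated the median of the bright genes was -0.02, and with cyclic loess it was 0.03, against -0.31 as deposited. Ehhadh then stood at 0.71 and 0.76 (limma adjusted p = 0.104 and 0.0797), and Acaa1b at 0.33 and 0.44 (adjusted p = 0.471 and 0.459). Acox2 was at -0.53 and -0.49 (adjusted p = 0.103 and 0.169). Acox3 changed little, at 0.85 under both (adjusted p = 0.0471 and 0.0534), so it passed with quantile normalization repeated, where 2.3% of genes did. Acaa1a was at -0.31 and -0.29 (adjusted p = 0.626 and 0.645), over 1.5 times smaller than as deposited. Hsd17b4 was at 0.28 and 0.34, and Abcd3 at 0.07 and 0.13, both with the sign turned, and neither passed. The direction of Hsd17b4 and Abcd3 thus depended on the scaling, while the other 6 genes kept their sign under both.

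The number 1 arrays were also treated as a block and left out. With the block, which leaves the log2 fold changes as they are, Acox3 was called higher (adjusted p = 0.022, 95% confidence interval 0.51 to 1.32) and Acox2 lower (adjusted p = 0.0422, 95% confidence interval -1.26 to -0.38), 2 of 8 against 6.55% of all genes. Of all genes, 1.51% were called higher and 5.04% lower. The block takes up only a shift shared by both number 1 arrays. Bright genes were low in NZO replicate 1 (median deviation -0.82) and not in BKS replicate 1 (0.05), so their shift stayed in the strain difference. Of the 17 probe sets, only the brighter one of Acox3 was called with the block (adjusted p = 0.0409), where 2.97% of all probe sets were. Acox3 alone was called with a variance trend and robust fit and with array weights, 1 of 8 each, against 1.54% and 7.13% of all genes. Among the other 2 against 2 arrays, Acox3 stood at 0.98 and was called (adjusted p = 0.0421), Acox2 stood at -0.54 and was not (adjusted p = 0.106), 1 of 8 against 5.01% of all genes. Tested among all probe sets, the same Acox3 values had a limma adjusted p of 0.0679 in 2 against 2 arrays. None of the 17 probe sets was called there, with the variance trend, with array weights or with quantile normalization repeated. Between the number 1 arrays alone, with no test, the differences were 0.78 for Acox3, -1.39 for Acox2, 0.34 for Ehhadh and -0.95 for Abcd3. Acox3, Acox2, Ehhadh, Acaa1a and Abcd2 thus had the same sign in both sets of arrays, whereas Abcd3 was at 0.12 among the 2 against 2. The part of array quality in these differences was not tested beyond these values.

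**Figure D4:**
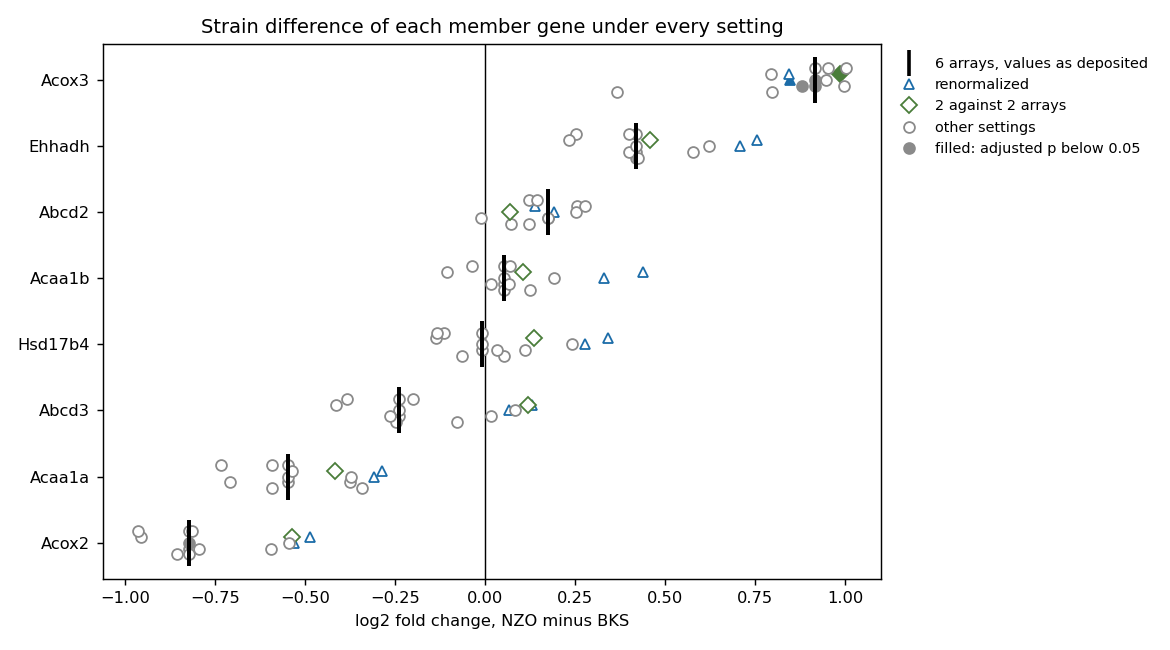
Log2 fold change (horizontal axis, NZO minus BKS) of each gene as deposited (black bar), after renormalization (triangles), in 2 against 2 arrays (diamonds) and under the other settings (circles), filled where the limma adjusted p was below 0.05. Acox3 lies right of 0 throughout and Acox2 left of it, while Hsd17b4 and Abcd3 fall on both sides.

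Genes with the nearest pattern over the 6 arrays were sought for the 2 members whose strains did not overlap, by the root mean square difference between log2 profiles centred on their means. For Acox2, among 9932 genes with a mean of at least 6 in the higher strain, they were Idh1 (0.03 log2 units apart), Hsd3b7 (0.04) and Clns1a (0.06). Idh1 encodes an isocitrate dehydrogenase of cytosol and peroxisomes, and Hsd3b7 a dehydrogenase of early bile acid synthesis. Their log2 fold changes were -0.81 for Idh1, -0.77 for Hsd3b7 and -0.86 for Clns1a, and none of the 3 passed. Acox3 itself, with an NZO mean of 5.93, lay below that minimum, so genes as dim were not searched. Its nearest were Ntrk2 (0.13), Tmc7 (0.15) and Farp1 (0.15), which were less close and did not pass either. Likeness over 6 arrays, which for Acox2 includes the low value in NZO replicate 1, is a description.

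Other genes of the peroxisomal pathway gave a background for the members. Of 29 listed genes 27 were measured, of which 2 rose in NZO (0.324% of all genes did), 1 fell (0.418% of all genes) and 24 did not pass, with a median log2 fold change of 0.07. Those that rose were the acyl-CoA thioesterases Acot3 (2.99, limma adjusted p = 0.0482) and Acot4 (2.17, adjusted p = 0.0064). The coenzyme A hydrolase Nudt19 fell by 1.64 on the log2 scale (adjusted p = 0.0232). Acot3 was read by a probe set ending in _s_at, which can match related transcripts. With the number 1 arrays as a block 6 were higher and 1 lower, where 1.51% and 5.04% of all genes were. Among them was Hacl1, a lyase of the alpha-oxidation that precedes beta-oxidation of phytanic acid, at 12.28, 12.80 and 12.79 in NZO livers and 11.82, 11.59 and 11.57 in BKS livers (log2 fold change 0.96, adjusted p = 0.019 with the block and 0.0938 without). In 6 of the 27 genes, Hacl1 included, all NZO livers lay above all BKS livers, and in 1 they lay below. Of all 18193 genes 1112 lay above in this way, Acox3 among them, and 1976 below. Eci3 (1.33) and Aldh3a2 (1.20), also among the 6, had larger log2 fold changes than Hacl1, while Phyh was at 0.004. Scp2, whose protein carries the thiolase for branched chains, was at -0.002 (adjusted p = 0.998).

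Other genes of bile acid synthesis and conjugation did not pass over all 6 arrays. Of 10 genes of side-chain shortening, conjugation and synthesis, none was called by limma and none had an unadjusted p below 0.05, with 3 above 0 and a median of -0.14. The racemase Amacr, which prepares the branched substrates for the oxidases, had 10.52, 11.66 and 11.64 in NZO livers and 11.44, 11.96 and 12.10 in BKS livers (log2 fold change -0.56, adjusted p = 0.609). The hydroxylases with the smallest p were Cyp7a1 (0.98, adjusted p = 0.441) and Cyp7b1 (-0.67, adjusted p = 0.479). Among the 2 against 2 arrays Cyp7a1 was at 1.54 and called (adjusted p = 0.0496), while Cyp7b1 was at -0.34 (adjusted p = 0.289).

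Some PPAR alpha targets outside the peroxisome rose in the same livers. Of 19 measured, 4 rose, where 0.324% of all genes did, none fell and 15 did not pass, with a median of 0.18. With the block 6 were higher, where 1.51% of all genes were, and 7 were in 2 against 2 arrays, where 2% of all genes were. The 4 were Cyp4a14, the fatty acid transporter Cd36 (log2 fold change 4.30, limma adjusted p = 0.0184), the pyruvate dehydrogenase kinase Pdk4 (2.52, adjusted p = 0.0159) and the thioesterase Acot1 (2.01, adjusted p = 0.0186). The fatty acid hydroxylase Cyp4a14 had 11.05, 12.42 and 12.47 in NZO livers and 6.33, 4.98 and 4.82 in BKS livers, a log2 fold change of 6.61 (adjusted p = 0.00304). BKS replicates 2 and 3 lay below their array medians for Cyp4a14, where a low signal fixes no exact fold. Ehhadh and Acaa1b did not pass in these livers, and the difference between them and the 4 targets that rose was not tested. The 15 targets outside the peroxisome that did not pass ran from 1.86 (Vnn1) through 0.14 (Acadm) to -0.52 (Slc25a20). On the peroxisomal list, Acot3 and Acot4 rose. Ppara was at -0.03 (adjusted p = 0.989). Of 12 measured regulators none was called and 1 had an unadjusted p below 0.05, the coactivator Ppargc1b (-0.80, adjusted p = 0.195, and 0.0321 with the block). The next smallest p belonged to the bile acid receptor gene Nr1h4 (0.39, adjusted p = 0.575).

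In whole liver, fewer cells of a type and less RNA per cell cannot be told apart. Of 7 Kupffer cell, 6 sinusoidal endothelial, 6 stellate, 4 cholangiocyte and 5 lymphocyte markers measured, none was called by limma, with 1, 2, 3, 0 and 0 at an unadjusted p below 0.05. Over all genes, 0.742% were called and 11.4% had an unadjusted p below 0.05. The smallest p belonged to Cd68 (log2 fold change 0.77) and Vsig4 (1.08) among Kupffer cell markers, to Col3a1 (-1.17) and Lrat (0.56) among stellate, to Epcam (0.73) and Sox9 (0.14) among cholangiocyte and to Cd3e (0.31) and Cd8a (0.91) among lymphocyte markers. Epcam was high in NZO replicate 1 only, at 9.78 against 7.07 to 7.73 in the other arrays. Cd8a was likewise at 9.55 there, against 6.41 to 6.70. Both were read by probe sets ending in _x_at. The other cholangiocyte markers were not highest there, with Krt19 at 5.88, Krt7 at 4.54 and Sox9 at 5.76. Of the other lymphocyte markers, Cd3e (7.19) and Cd79a (5.83) were highest there, and Ms4a1 and Ptprc were not. In 2 against 2 arrays Epcam was at 0.07 and Cd8a at -0.06. In 2 against 2 arrays 2 Kupffer cell markers (Vsig4 at 1.96 and Cd68 at 1.17), 2 stellate markers (Dcn at 1.27 and Lrat at 0.71) and 2 endothelial markers (Stab2 at 1.05 and Pecam1 at 0.83) were called higher, where 2% of all genes were. The medians there were 0.50 over the Kupffer cell, 0.20 over the stellate and 0.75 over the endothelial list. All 6 endothelial markers were above 0 (median 0.42), with a summed linear signal of 977 to 1801 in NZO and 762 to 1091 in BKS. Stab2 and Pecam1 were higher in all NZO livers, as Acox3 was and as 1112 of all 18193 genes were. They were called with the block (adjusted p = 0.0345 and 0.0297), where 1.51% of all genes were called higher. All 8 hepatocyte markers were measured without a call and none had an unadjusted p below 0.05 (median -0.32), the smallest p being those of Hnf4a (-0.39) and Apoa1 (-0.52), with a summed signal of 64920 to 134160 in NZO and 122931 to 128185 in BKS. In 2 against 2 arrays their median was 0.00 and Apob was called higher (1.02, adjusted p = 0.0128). The hepatocyte markers Apoa1 and Ttr were lower in all NZO livers, as Acox2 was and as 1976 of all 18193 genes were. Of the stellate markers, Lrat was higher and Col3a1 lower in all NZO livers. The part of cell makeup in the values of Acox2 and Acox3 was not tested.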

How the data were processed

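RNA of 3 NZO and 3 BKS liver samples was hybridised to Affymetrix mouse 3' arrays, 1 array per sample, as biotin-labelled cRNA. The authors deposited log2 values, which come from RMA run in the Affymetrix Expression Console according to the submitters' processing notes. Versions, and whether these 6 arrays were normalized in 1 run, alone or with others, are not given in the sources used here. The values hold no detection calls, and the number of arrays limits the precision. The labels do not state that each array is a separate animal. If any were not, p-values measure only the spread between these samples.

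Strains were assigned by the strain label, and replicate numbers are names in accession order. Probe sets were named from the platform annotation, with symbols updated by Entrez ID to GRCm38.p6: 34945 had 1 gene symbol, 932 several, 9160 none listed, and 64 controls were left out. The brightest probe set on average stood for each of 18193 genes, and 18032 matched the reference. NZO was tested against BKS by limma (version 3.58.1, under R 4.3.3) over all 6 arrays with lmFit and eBayes, two-sided and without a covariate, Benjamini-Hochberg adjusted over all genes, or over all 45037 probe sets. A call is an adjusted p below 0.05. Fold changes are NZO minus BKS. The fit was checked on simulated data without array shifts. It called 33% of set changes of 1 log2 unit and 77% of those of 2, with 6 false calls among 116. Many changes of about 1 log2 unit would thus be missed with 3 against 3 arrays.

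All 8 members are named, with every probe set. Of each other list, all called genes are named if 5 or fewer, otherwise the 4 with the largest change, and the 2 with the smallest p where none was called. Amacr, Ppara and Cyp4a14 are named whatever their result. Hacl1, Scp2, Eci3, Aldh3a2, Phyh, Vnn1, Acadm, Slc25a20, Dcn, Apob, Ttr, Krt19, Krt7, Cd79a, Ms4a1 and Ptprc were chosen after their values were seen. Members, lists, rules and alternatives were chosen with earlier results of these data known. Members of the lists without a named probe set were not analysed here. Promoter windows came from RefSeq and were matched by symbol for 6 of the 8 genes. Python 3.11.15 and matplotlib 3.10.9 drew the figures.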

Additional observations from a re-analysis of the deposited data

How the results depend on the processing

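Of 111 values of member genes under alternatives, 90 kept their direction and their side of the threshold, 6 gained a call, none lost one and 15 changed sign. Those that gained a call were Acox2 with the block and Acox3 with the block, with a variance trend and robust fit (adjusted p = 0.021), with array weights (adjusted p = 0.0211), with quantile normalization repeated and in 2 against 2 arrays. No member was called with any single array left out, where Acox3 lay between 0.80 and 1.00 on the log2 scale (adjusted p from 0.091 to 0.444), Acox2 between -0.96 and -0.54 (adjusted p from 0.177 to 0.7) and Ehhadh between 0.23 and 0.62. Sign changes concerned values that never passed. Hsd17b4 was at 0.28 with quantile normalization repeated, 0.34 with cyclic loess, 0.11 with array weights, 0.14 in 2 against 2 arrays and from -0.14 to 0.24 with single arrays left out. Abcd3 was at 0.067, 0.13, 0.017 and 0.12 under the same 4 settings and from -0.41 to 0.083 with single arrays left out. Acaa1a kept its sign throughout, from -0.73 to -0.34 with single arrays left out, the smallest without BKS replicate 2. Acaa1b ran from -0.11 to 0.19 and Abcd2 from -0.011 to 0.28 with single arrays left out. The 8 member genes had 1 call with the variance trend, with quantile normalization repeated, with array weights and in 2 against 2 arrays, and 2 with the block. The 17 member probe sets had 1 call with the block and none under any other setting. Over all genes, 135 were called, against 281 with the variance trend, 419 with quantile normalization repeated, 429 with cyclic loess, 1298 with array weights, 1192 with the block, 912 in 2 against 2 arrays and 27 to 258 with single arrays left out. The causes of these changes were not tested, except that leaving out arrays leaves fewer samples. Abcd2 fell below the filter on dim genes and has no value there. No paired analysis was possible because only title number 1 occurs in both strains, and no label says that it marks a shared litter or day. Dim signal limits Abcd2, the second probe sets of Acox3 and Abcd3, and the size of the Acox3 change, whose BKS values lie near the array medians.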
